A study of Mus musculus with 25 samples.

Results

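The genes of the cytoplasmic ribosomal proteins were examined in ribosome-bound mRNA from spinal cord cholinergic neurons with and without Bmal1. Members were chosen by name: symbols that start with Rpl or Rps and a number, with Rpsa, Rplp0, Rplp1 and Rplp2. Names that carry -ps (pseudogene copies), the S6 kinase genes and a few further rows that the rule lists were left out. Among these rows were the small subunit genes Rps13 and Rps15a, so the set does not hold every cytoplasmic ribosomal protein gene. A member needed 10 or more counts summed over the 24 immunoprecipitates. Of 91 rows that fit the names, 89 passed, out of 21738 genes that reached the same limit in the whole series. The last members inside the limit were Rpl39l with 10 counts and Rps23rg1 with 12, and the rows just outside it were Rpl32l with 1 count and Rpl10l with 0. The label held: 75 members are the annotated main genes of a ribosomal protein, 29 of the small subunit, 43 of the large subunit and 3 of the P stalk, and the other 14 are paralogs or copies. Of these 14, Rpl6l, Rps12l1, Rps3a2 and Rps3a3 are annotated as processed pseudogenes. Rps4l and Rpl37rt are annotated as transcribed processed pseudogenes.

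All mice were 6-mo-old C57BL/6J males that carried ChAT-Cre and 1 RiboTag allele (RiboTag fx/+), in which Cre leads to a hemagglutinin-tagged Rpl22 protein in cells that express, or once expressed, Cre from the ChAT driver. Controls were ChAT-Cre;RiboTag fx/+ mice, and ChAT-BKO mice were ChAT-Cre;RiboTag fx/+;Bmal1 fx/fx, so that Bmal1 was deleted in the same cells. Spinal cords were taken at ZT8, in the light phase, and at ZT20, in the dark phase, from 6 mice of each genotype, which gave 24 immunoprecipitates of tagged ribosomes. A single library of input, pooled over wild-type and knockout homogenates, stood for whole spinal cord. Lower values in such samples may mean fewer cells or less RNA per cell, which cannot be told apart.

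Ribosomal proteins assemble with ribosomal RNA into a small subunit, which reads the message, and a large subunit, which joins amino acids. The P stalk is a flexible arm of the large subunit that recruits the translation factors. Most of their mRNAs begin with a run of pyrimidines, the terminal oligopyrimidine (TOP) motif, through which growth signals acting by way of mTOR and LARP1 control how many ribosomes the mRNAs load, so that in ribosome-bound RNA the group usually moves together. In motor neurons, which keep long axons supplied with protein, ribosome content is among the classical features of the cell body.

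The first transcribed bases of a few members are shown because the TOP motif is the sequence feature these mRNAs are known for, and because a copy such as Rps27rt can be set beside its parent there. Of the 89 members, 64 had an entry in RefSeq's promoter table (GRCm38.p6). Each line gives 15 bases before and 15 bases after the listed start on the gene's own strand, and capitals mark the run of C and T around the first C, from 5 bases before to 10 bases after the start, that is followed by at least 4 further pyrimidines.
Rps6 (chr4:86857353-86857382, minus strand): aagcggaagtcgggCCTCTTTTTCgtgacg
Rpl28 (chr7:4792950-4792979, plus strand): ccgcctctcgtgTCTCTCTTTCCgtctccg
Rpl15 (chr14:18270972-18271001, minus strand): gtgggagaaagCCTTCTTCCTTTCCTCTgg
Rpl35 (chr2:39005117-39005146, minus strand): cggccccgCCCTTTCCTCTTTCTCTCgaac
Rpl38 (chr11:114668565-114668594, plus strand): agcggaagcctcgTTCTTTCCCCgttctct
Rplp2 (chr7:141447636-141447665, plus strand): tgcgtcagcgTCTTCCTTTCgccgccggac
Rpl7a (chr2:26910792-26910821, plus strand): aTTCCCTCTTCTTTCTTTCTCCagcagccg
Rps25 (chr9:44407699-44407728, plus strand): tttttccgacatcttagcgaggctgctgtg
Rps27 (chr3:90213634-90213663, minus strand): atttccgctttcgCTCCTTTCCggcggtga
Rps27rt (chr9:114982725-114982754, minus strand): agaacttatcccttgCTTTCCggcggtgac
Rpl22 (chr4:152325711-152325740, plus strand): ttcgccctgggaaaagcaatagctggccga
Rpl22l1 (chr3:28805493-28805522, plus strand): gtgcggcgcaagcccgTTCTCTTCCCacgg

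Such a run was found at a listed start of 36 of the 64 members (56.2%) and of 7482 of all 27025 genes in the table (27.7%). Rps25 had none in this window, and Rpl22 had none at the first of its 2 listed starts. Listed starts can lie some bases from the start that a cell uses, so no match says only that the letters are not in this window. Rps27 and Rps27rt, a copy on another chromosome, ended their windows on nearly the same letters. In the deposited values 0% of those of Rps27 and 4.2% of those of Rps27rt were not whole numbers, so few reads had been divided between genes for this pair.

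BMAL1 with its partner CLOCK binds the E-box CACGTG, which reads the same on both strands. The motif was present in the promoter window (250 bases before to 50 after the start) of 6 of the 64 members, or 9.38%, against 8.09% of all genes in the table. The members with it were Rpl13a, Rpl14, Rpl19, Rpl23, Rpl34 and Rps19. In Rpl23, a large subunit gene, it spanned the start itself, as the window below shows with the motif in capitals.
Rpl23 (chr11:97782425-97782454, minus strand): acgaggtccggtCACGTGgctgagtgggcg

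The immunoprecipitates held 4.04 M to 31.7 M counts (M, mega) and the input 7.40 M. Arntl, the gene of BMAL1, checked the genotype labels. It ranged from 6.22 to 9.99 CPM (counts per M of the library, after scaling by the trimmed mean of M values, TMM) in controls and from 1.97 to 3.30 CPM in ChAT-BKO at ZT8, and from 7.60 to 10.9 against 1.35 to 2.80 CPM at ZT20, with no overlap (log2 fold change -1.64, SE 0.16, adjusted p 1.56e-05, and -2.08, SE 0.16, adjusted p 1.98e-07, edgeR quasi-likelihood test). All 7 cholinergic markers were above the input, with a median log2 ratio of 2.36, and 0 of the markers of oligodendrocytes, astrocytes, microglia, endothelium, muscle and blood were. The 4 lists of glia and endothelium had medians from -4.41 to -3.64.

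Ribosomal protein mRNAs took up a small share of every library, with similar medians in all conditions. The 89 members together held from 1.20% to 1.86% of all counts over the 24 immunoprecipitates, with a median of 1.59%. In controls the share was lowest at 1.25%, with a median of 1.59% and a highest value of 1.77% at ZT8, and it ran from 1.46% through 1.60% to 1.85% at ZT20. In ChAT-BKO it ran from 1.3% through 1.54% to 1.66% at ZT8, and from 1.20% through 1.53% to 1.86% at ZT20. The conditions overlapped throughout, and the widest spread was inside ChAT-BKO at ZT20, which held both the lowest and the highest library of the series. The share was 1.45% in the input (95% Wilson interval 1.44% to 1.46%, counting error only).

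**Figure D1:**
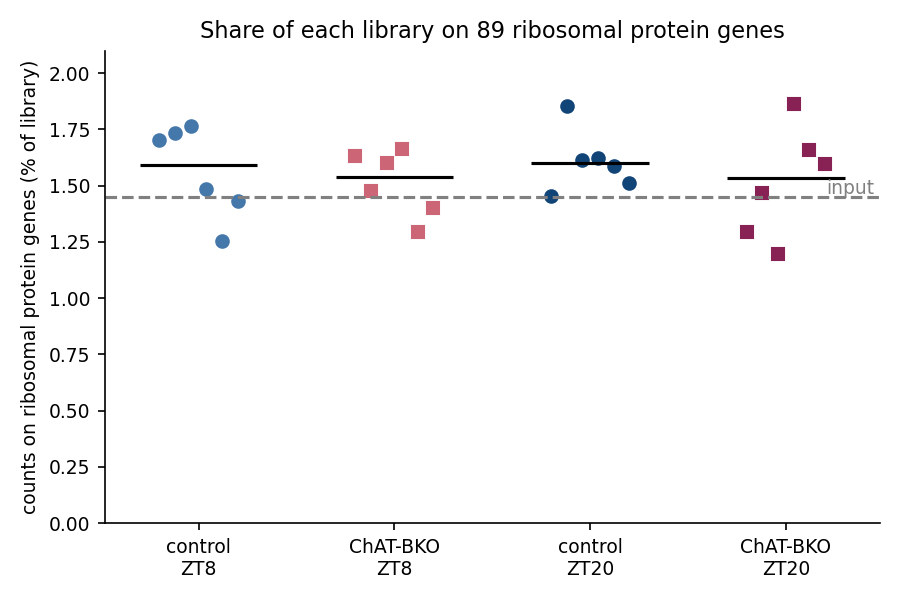
Percent of each library's counts that fell on the 89 ribosomal protein genes, by condition (points: 6 libraries each, bars: medians, dashed line: pooled input). The 4 medians lie between 1.53% and 1.60%, and every condition overlaps every other.

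Levels between genes were compared as CPM per kilobase of the principal annotated transcript, which is a mean ± SD over the 24 immunoprecipitates. The 75 main genes spanned from 25.4 to 676 CPM per kilobase, with a median of 198. The highest were Rpl19 (676 ± 71.6), Rps15 (482 ± 60.2), Rpl36 (440 ± 61.6), Rpl7a (408 ± 47.1) and Rplp1 (398 ± 73.3). Only the first of these stood clear of the next by more than their SDs, and Rpl36, Rpl7a and Rplp1 did not differ beyond their spread.

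The lowest main genes were Rps20 (25.4 ± 4.51), Rpl22 (34.8 ± 4.16), Rps24 (49.5 ± 7.33) and Rpl18 (64.8 ± 11.7). Their principal transcripts are also the longest of the 75, at 3706, 2051, 4059 and 2989 nt, so these levels rest on the annotated length. In plain CPM, which is not corrected for length, the order began with Rpl4 (572 ± 44.4), Rpsa (512 ± 74.9) and Rpl19 (508 ± 53.8). Rpsa encodes a small subunit protein also known as the laminin receptor.

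Rpl22 is the gene that carries the RiboTag allele, and its protein is the handle by which ribosomes were pulled down. It was read at 57.5, 75.1 and 82.2 CPM (lowest, median, highest) in controls at ZT8 and at 64.6, 73.2 and 78.2 CPM in ChAT-BKO at ZT8. At ZT20 it was read at 64.2, 72.6 and 82.2 CPM in controls and at 56.3, 62.6 and 84.0 CPM in ChAT-BKO. All 4 ranges overlapped, so the tagged gene did not separate the conditions. By edgeR, ChAT-BKO differed from control by 0.00 on the log2 scale at ZT8 (SE 0.08, adjusted p 1) and by -0.11 at ZT20 (SE 0.09, adjusted p 0.884).

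Rpl22l1, a paralog whose product can take the place of Rpl22 in the ribosome, was present at a like level per length, 42.9 ± 7.83 CPM per kilobase against 34.8 ± 4.16 for Rpl22. It ran from 55.4 through 89.1 to 103 CPM in controls and from 65.4 through 78.8 to 94.8 CPM in ChAT-BKO at ZT8. At ZT20 the values were 77.4, 83.5 and 108 CPM in controls and 61.1, 77.1 and 106 CPM in ChAT-BKO. The groups overlapped at both times, and the log2 difference by edgeR was -0.06 at ZT8 (SE 0.14, adjusted p 1) and -0.13 at ZT20 (SE 0.11, adjusted p 0.879).

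The remaining paralogs and copies spanned a wide range of levels. The highest were Rpl36al (96.6 ± 18.1 CPM per kilobase), Rps4l (78.0 ± 12.7) and, lower, Rps27l (21.6 ± 4.14), Rpl7l1 (11.3 ± 1.10) and Rpl6l (10.2 ± 1.91). Rps27l is a p53-induced relative of Rps27, and Rpl7l1 acts in the nucleolus in ribosome assembly. The others were low: Rps27rt 4.59, Rps3a2 3.81, Rpl37rt 3.59, Rps12l1 0.49, Rpl3l 0.34, Rps3a3 0.10 and Rpl39l 0.031 CPM per kilobase, while Rps23rg1 had no annotated length and a mean of 0.028 CPM. Rpl3l, the striated muscle form of Rpl3, was thus close to absent beside Rpl3 at 315 ± 18.1 CPM per kilobase, and Rpl39l, best known from testis, was near the limit of detection.

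How far reads were split between copies was read from the values. More than 50% of the values over the 24 immunoprecipitates were not whole numbers for 42 of the 89 members, which happens where the counting program shares a read between near-identical sequences. The same held for 2889 of the 21738 genes tested (13.3%). The -ps rows of a member, left out by the rule, held as much as 15.7% of the parent's counts for Rpl15 and 11.3% for Rps6. Summing all 307 -ps rows into their parents moved the median share of a library from 1.59% to 1.62%. Levels of single members are uncertain to that extent.

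Against the input, ribosomal protein mRNAs stood near or above 1:1 as a group, depending on the scaling, and the members differed widely among themselves. By total counts, the log2 ratio of the mean immunoprecipitate to the single input was above 0 for 45 of 89 members, with a median of 0.01, beside a median of -0.31 over 13721 genes with a mean of 1 CPM or more. Large subunit genes had a median of 0.21 (26 of 43 above 0) and small subunit genes a median of -0.10 (12 of 29 above 0). Scaled by TMM over all 25 libraries, the members' median was 0.43 (74 of 89 above 0), beside 0.14 over the same 13721 genes. The median of small subunit genes then turned from below to above 0, at 0.35, and that of large subunit genes was 0.66. With 1 input library there is no test of these ratios, and they carry the composition of whole spinal cord as well as of the neurons.

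Among main genes the highest ratio was that of Rpl27, at 1.03, and over the 24 libraries it ran from 0.44 to 1.39. Rpl36 followed at 0.73 and Rpl19 at 0.72. The lowest was Rps27, at -1.21 with a range from -1.53 to -0.81, then Rps12 at -0.89 and Rps29 at -0.77. These 2 ends did not overlap in any library.

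Over all members, the copies Rpl6l (1.43), Rps4l (1.21) and Rpl36al (1.17) stood above Rpl27, and Rpl22l1 (0.75) just below it. At the lower end the copies Rps12l1 (-2.16) and Rps27rt (-1.33) stood below Rps27, and Rpl3l (-1.06) just above it. The input counts behind these last copies were 9, 33 and 8, and 24 behind Rpl6l, so that counting error is large there, while Rpl36al had 405 and Rps27 737. Rpl22 itself stood at -0.18. In the P stalk, Rplp0, the scaffold protein, was at -0.10, Rplp1 at -0.09 and Rplp2 at 0.21.

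Other groups of housekeeping mRNAs were higher against the same input. Mitochondrial ribosomal proteins had a median log2 ratio of 0.74 (71 of 78 above 0), the respiratory chain and ATP synthase 0.84 (75 of 83) and the proteasome 1.05 (36 of 40). Translation factors and other TOP mRNAs had a median of 0.27 (15 of 20 above 0), and ribosome biogenesis factors 0.45 (15 of 18). All these medians are by total counts.

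**Figure D2:**
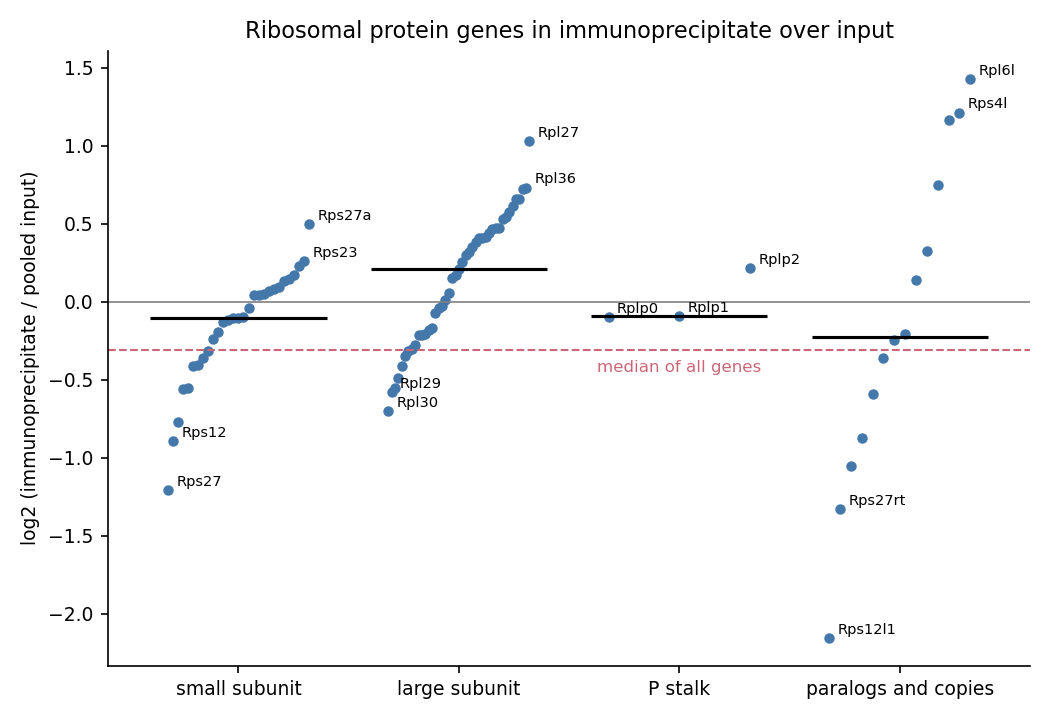
Log2 ratio, by total counts, of the mean CPM over 24 immunoprecipitates to the pooled input for each of 89 ribosomal protein genes, by class (points: genes, bars: class medians, dashed line: median of 13721 genes). Large subunit genes lie around 0.21, small subunit genes around -0.10, and copies span from -2.16 to 1.43.

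The first comparison asked whether loss of Bmal1 in cholinergic neurons altered ribosomal protein mRNAs at ZT8. It did not do so detectably. Of 89 members, 0 were called by edgeR at an adjusted p under 0.05 and 0 had an unadjusted p under 0.05, beside 0.184% and 4.83% of the 21738 genes tested, and DESeq2 also called 0 and gave 0 at an unadjusted p under 0.05. The median log2 fold change of the members was -0.05, with a median SE of 0.10, against 0.00 over all genes tested. Fold changes were below 0 for 79 members, where 50% of all genes were, and the 75 main genes ran from -0.11 to 0.03. The CPM ranges of the groups overlapped for every member, where 0.57% of all genes had groups that did not. Because the members rise and fall together from library to library, their number on one side of 0 is not a count of independent results.

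The smallest p among them belonged to Rpl10, which joins the large subunit late in its maturation. It was read at 165, 198 and 225 CPM in controls and at 165, 184 and 194 CPM in ChAT-BKO at ZT8. All ChAT-BKO values lay within the control range, and the fold change of -0.11 (SE 0.07, p 0.12, adjusted p 1, edgeR) did not pass the threshold. Rpl12, behind Rps23rg1 in this order, was read at 164, 207 and 235 CPM against 160, 188 and 212 CPM (log2 fold change -0.11, SE 0.08, adjusted p 1). The other 3 of the 5 smallest p were copies near the detection limit: Rps23rg1 at 1.67 (SE 1.07), Rps12l1 at -1.05 (SE 0.82) and Rps3a3 at -1.0 (SE 0.80). With Rpl39l, another such copy at -1.24, they were the 4 members farthest from the members' median.

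At ZT20 the same question gave slightly lower values in ChAT-BKO across the group, again without a call. By edgeR 0 members had an adjusted p under 0.05 and 0 an unadjusted p under 0.05, beside 0.23% and 6.28% of all genes, and DESeq2 gave 0 and 0. The median log2 fold change was -0.11, with a median SE of 0.11, against -0.01 over all genes. It was below 0 for 85 members, where 51.6% of all genes were, and for all 75 main genes, which ran from -0.20 to -0.01. The groups overlapped for every member, where 0.506% of all genes had groups that did not.

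Rps25, a small subunit protein used by viral internal ribosome entry sites, had the smallest p. It was read at 110, 122 and 154 CPM in controls at ZT20 and at 87.1, 107 and 143 CPM in ChAT-BKO (log2 fold change -0.20, SE 0.10, p 0.065, adjusted p 0.81). The upper ChAT-BKO libraries lay among the controls, and the highest control library stood apart from the other 5. Rpl35, which sits at the exit of the peptide tunnel, was read at 126, 150 and 175 CPM against 104, 132 and 183 CPM (-0.19, SE 0.11, adjusted p 0.831), and here the knockout held the lowest and the highest library. Rpl7a (-0.13, SE 0.07) and Rpl36a (-0.17, SE 0.10) lay between them by p and Rpl29 (-0.13, SE 0.08) after them, with adjusted p from 0.828 to 0.831. Rpl39 had the lowest fold change among main genes, at -0.20 (SE 0.14), and Rpl31 the highest, at -0.01 (SE 0.06).

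The ZT20 median rested on single libraries to a large extent. Without ChAT-BKO replicate 4 it was -0.19, with 38 of 89 members at an unadjusted p under 0.05, beside 9.69% of all genes in the same fit, and 0 called (lowest adjusted p 0.214, edgeR), and without ChAT-BKO replicate 3 it was -0.04. Without ChAT-BKO replicate 1 and without control replicate 2 it was -0.05 in each case. At ZT8 it was -0.11 when control replicate 5 was left out, -0.01 in the absence of control replicate 2, control replicate 3 or replicate 5 of ChAT-BKO, -0.02 for control replicate 1, -0.03 for ChAT-BKO replicate 6, -0.08 for ChAT-BKO replicate 1 and -0.09 for ChAT-BKO replicate 4. Small and large subunit genes had the same medians, -0.11 each at ZT20 and -0.05 each at ZT8.

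The P stalk genes were also read at overlapping levels. Rplp0 was read at 230, 251 and 290 CPM in controls and 208, 244 and 282 CPM in ChAT-BKO at ZT20, and Rplp1 at 179, 197 and 274 against 142, 197 and 261 CPM. Rplp2, whose protein pairs with that of Rplp1, spanned 108.7 to 182 CPM in controls and 87.5 to 187 CPM in ChAT-BKO at the same time. The log2 fold changes of the 3 genes in ChAT-BKO lay from -0.09 to -0.05 at ZT8, and from -0.11 to -0.08 at ZT20, with a median SE of 0.13 and 0.12.

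The comparison of time asked whether ribosomal protein mRNAs on ribosomes differ between ZT8, in the light phase, and ZT20, in the dark phase. A rhythm that peaks between these times could go unseen. In controls, 0 members were called and 0 had an unadjusted p under 0.05 by edgeR, beside 0.115% and 8.25% of all genes, and DESeq2 gave 0 and 0. The median log2 fold change of ZT20 over ZT8 was 0.02 (median SE 0.09), above 0 for 73 of 89 members, where 49.1% of all genes were below 0. It turned to -0.03 without control replicate 5 of ZT8 and to -0.02 without control replicate 2 of ZT20. The smallest p was that of Rps27l, read at 7.40, 10.1 and 12.2 CPM at ZT8 and at 9.44, 11.9 and 14.2 CPM at ZT20 (0.22, SE 0.12, p 0.074, adjusted p 0.655). Rpl29 (0.10, SE 0.07), Rpl4 (0.07, SE 0.05), Rps3a1 (0.13, SE 0.10) and Rps24 (0.10, SE 0.08) followed, and as for every member the ranges overlapped (0.938% of all genes had ranges that did not).

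In ChAT-BKO the members did not lean to either time. By edgeR 0 were called and 0 had an unadjusted p under 0.05, beside 0.285% and 9.42% of all genes, and DESeq2 gave 0 and 0. The median was -0.00 (median SE 0.11), with 40 members above 0 and 49 below, where 49.2% of all genes were below. No member had groups that did not overlap, against 1.18% of all genes. Leaving out 1 library moved it between -0.10 (ChAT-BKO replicate 4 of ZT20) and 0.06 (replicate 3 of ZT20). Rpl7l1 had the smallest p. It ran from 23.5 through 28.5 to 30.3 CPM at ZT8 and from 27.0 through 31.5 to 37.2 CPM at ZT20 (0.14, SE 0.08, p 0.114, adjusted p 0.66). Rpl22 (-0.12, SE 0.09), Rps4l (-0.11, SE 0.08) and the rare copies Rps23rg1 (-1.66, SE 1.02) and Rpl39l (1.28, SE 1.00) made up the rest of the 5 smallest p.

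Whether the effect of Bmal1 loss differed between the times was tested as the difference of the ChAT-BKO effects. By edgeR 0 of 89 members were called and 0 had an unadjusted p under 0.05, beside 0% and 3.9% of all genes, and DESeq2 gave 0 and 0. The median difference was -0.04 (median SE 0.16). Fold changes differed downward for 70 members, where 49.7% of all genes did. Rps23rg1 (-2.54, SE 1.54), Rps27l (-0.33, SE 0.21), Rpl7l1 (0.15, SE 0.11), Rpl39l (1.66, SE 1.25) and Rpl35 (-0.19, SE 0.16) had the smallest p, with an adjusted p of 1.00 in all 5.

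**Figure D3:**
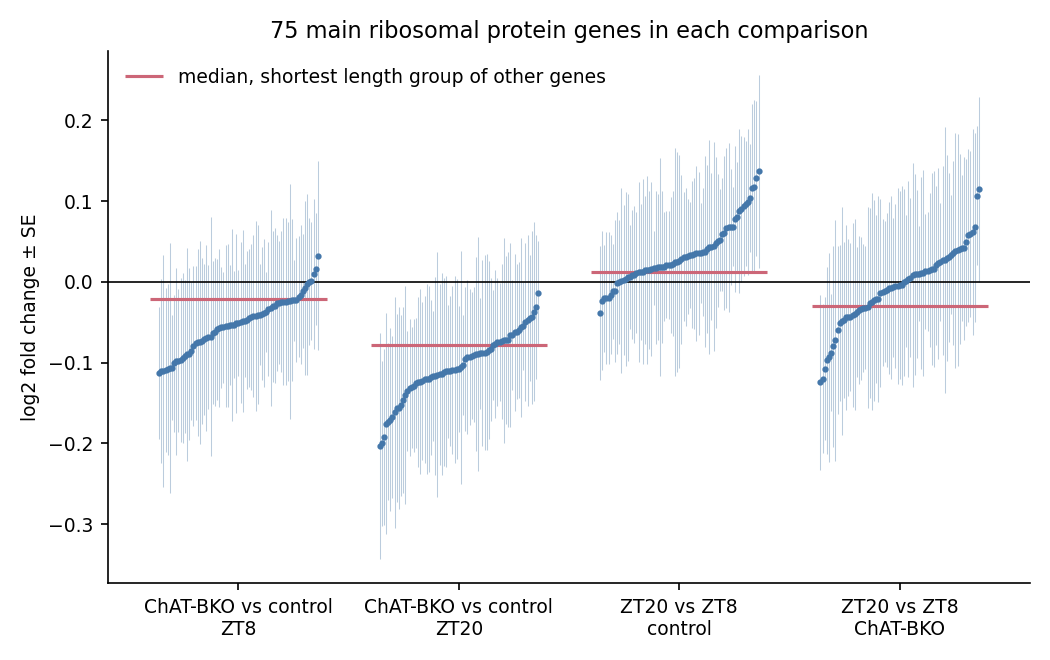
Log2 fold change ± SE of the 75 main ribosomal protein genes, sorted within each of the 4 pairwise comparisons, with the median of the shortest of 10 length groups of other genes as a red bar. All genes lie within -0.20 and 0.14, and at ZT20 all 75 are below 0, as is the red bar at -0.08.

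Genes with and without the pyrimidine run moved alike. Of the 55 main genes with a listed promoter, the 31 with a run had a median log2 fold change of -0.11 in ChAT-BKO at ZT20, with a range from -0.20 to -0.01, and the 24 without it a median of -0.09, with a range from -0.20 to -0.03. In controls between the times the medians were 0.03 and 0.02. These are descriptions of the listed starts and were not tested.

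The factors around the ribosome gave medians nearer to 0 than the members' -0.05 and -0.11, and in one list above 0 at ZT20. Other TOP mRNAs and ribosome partners, such as elongation factors, had a median of -0.01 at ZT8 and -0.05 at ZT20 in ChAT-BKO over 20 genes, and ribosome biogenesis factors -0.00 and -0.05 over 18. The 10 regulators of TOP mRNAs, such as mTOR and LARP1, had -0.03 and 0.09. Over these 3 lists, and over mitochondrial ribosomal proteins, the respiratory chain and the proteasome, 0 genes were called in any of the 5 comparisons by edgeR. Calls over all genes ran from 0% to 0.285%. Between 0 and 4 genes of a list had an unadjusted p under 0.05. The 4 were of 83 respiratory chain genes in ChAT-BKO at ZT8, beside 4.83% of all genes. For time in controls it was 3 of 18 biogenesis factors and 2 of 10 TOP regulators, beside 8.25% of all genes.

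The level of these genes differed between libraries of the same condition more than between conditions, and it did so together with other short mRNAs. For each library a length slope was taken: the change in log2 CPM per doubling of the longest annotated transcript, over 13139 other genes with a mean of 1 CPM or more. It ran from 0.107 to 0.350 over the 24 immunoprecipitates, with a median of 0.184. The mean log2 CPM of the members ran from 6.17 to 6.83, and was higher in libraries of lower slope. The sign of the slope depends on the genes taken: over those of 10 CPM or more it was below 0 in most libraries, so it is read here only as a difference between libraries. The 3 libraries with the lowest slopes, control replicate 2 at ZT8, ChAT-BKO replicate 4 at ZT20 and control replicate 2 at ZT20, had means of 6.77, 6.83 and 6.83, and the 2 with the highest, ChAT-BKO replicate 3 at ZT20 and control replicate 5 at ZT8, had 6.17 each.

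Over the 24 libraries the members' mean followed the slope with Pearson's r of -0.978 and Spearman's rho of -0.979, falling by 0.27 on the log2 scale per 0.1 of slope. After removal of the condition means r was -0.982, within the 4 conditions it lay between -0.997 and -0.956, and without the 2 libraries farthest from the median slope it was -0.971. The members were left out of the slope, but both measures come from the same libraries and share their scaling, so the relation is a description. The SD of the members' mean was 0.188 over the libraries and 0.039 about the line, and with the log2 of total counts r was -0.01. The first principal component of the variance within conditions held 23.2% of it, over all genes tested, and had an absolute r of 0.990 with the slope and 0.983 with the members' mean.

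**Figure D4:**
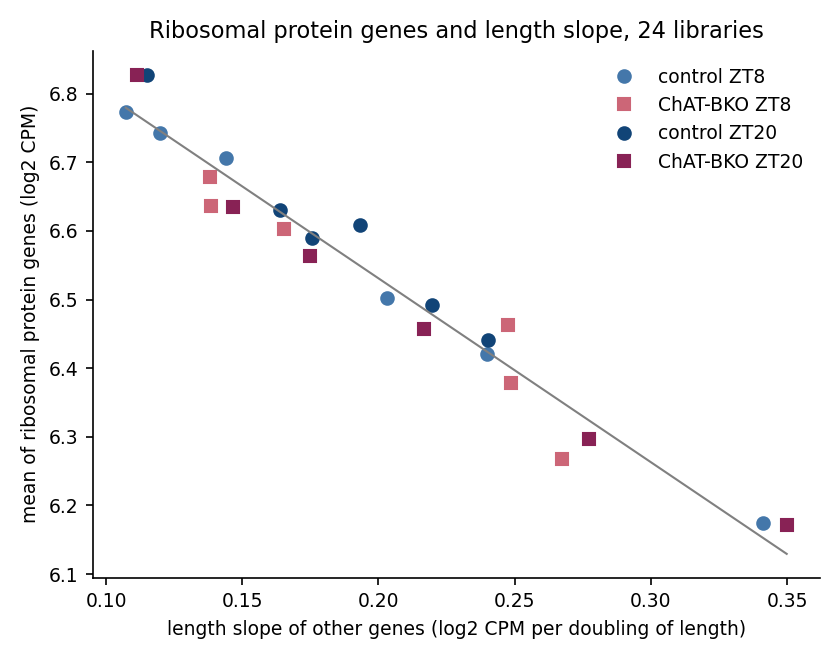
Mean log2 CPM of the 89 ribosomal protein genes against the length slope of 13139 other genes in each of 24 immunoprecipitates, by condition, with the least-squares line. Means span 6.17 to 6.83 and slopes 0.107 to 0.350, and the mean falls as the slope rises. Libraries of all 4 conditions lie close to the line. ChAT-BKO at ZT8 and controls at ZT20 span only 0.138 to 0.268 and 0.115 to 0.240 of the slope.

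Single members followed the slope to different degrees. All 75 main genes were lower in libraries of higher slope, with r from -0.98 (Rpl38) to -0.75 (Rpl3), and they changed by between -0.47 (Rps21) and -0.09 (Rpl3) per 0.1 of slope, with a median of -0.29. Rpl3, which lines the peptidyl transferase centre, was the steadiest of them, with an SD of 0.085 on the log2 scale within conditions, and Rps21 the least steady, with 0.36. Rplp2 (-0.43) and Rpl38 (-0.45) were also among the genes that changed most, and Rpl4 (-0.13) among those that changed least. Over the 75 genes the change had a Pearson's r of 0.29 with the log2 length of the principal transcript and of -0.19 with its GC content, both weak within this group of short mRNAs. Relative to the mean of the members, Rps6, the target of the S6 kinases, varied least of all 89, with an SD of 0.036.

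The balance of small and large subunit genes varied less than their level, and moved with it. The mean log2 CPM of small minus large subunit genes ran from -0.36 to -0.26, with an SD of 0.026 over the 24 libraries, and its condition medians lay between -0.32 and -0.30. It had r of 0.805 with the members' mean over the 24 libraries, and 0.836 after removal of the condition means, as a description of libraries that share their scaling. P stalk genes had r of -0.967 with the slope, against -0.975 for small and -0.972 for large subunit genes and -0.761 for paralogs and copies, several of which are close to 0 counts.

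Other lists followed the slope in the order of their lengths. The respiratory chain and ATP synthase genes, with a median longest transcript of 927 nt, changed by -0.27 per 0.1 of slope (r -0.986), as the members did with a median of 1045 nt. Mitochondrial ribosomal proteins (1866.5 nt) changed by -0.21, the proteasome (1895 nt) by -0.17, other TOP mRNAs (2226.5 nt) by -0.14 and ribosome biogenesis factors (3252.5 nt) by -0.05, while the long mRNAs of TOP regulators (6025 nt) changed by 0.18 in the opposite direction.

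Sorted by length into 10 groups of equal size, the other genes of 1 CPM or more showed a gradient. The shortest group, with transcripts up to 1362 nt, held the lengths of 63 members and had a median change of -0.21 per 0.1 of slope, and the longest group had 0.12. The groups of 1363 to 1965 nt and of 1967 to 2482 nt had -0.11 and -0.06. Lists of like length changed more by their means: mitochondrial ribosomal proteins by -0.21, the proteasome by -0.17 and other TOP mRNAs by -0.14. The reason for this excess was not tested. In ChAT-BKO against control the shortest group had a median log2 fold change of -0.02 at ZT8 and -0.08 at ZT20, beside -0.05 and -0.11 for the members, and the longest group 0.01 and 0.04. Between times the shortest group had 0.01 in controls and -0.03 in ChAT-BKO, beside 0.02 and -0.00 for the members.

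**Figure D5:**
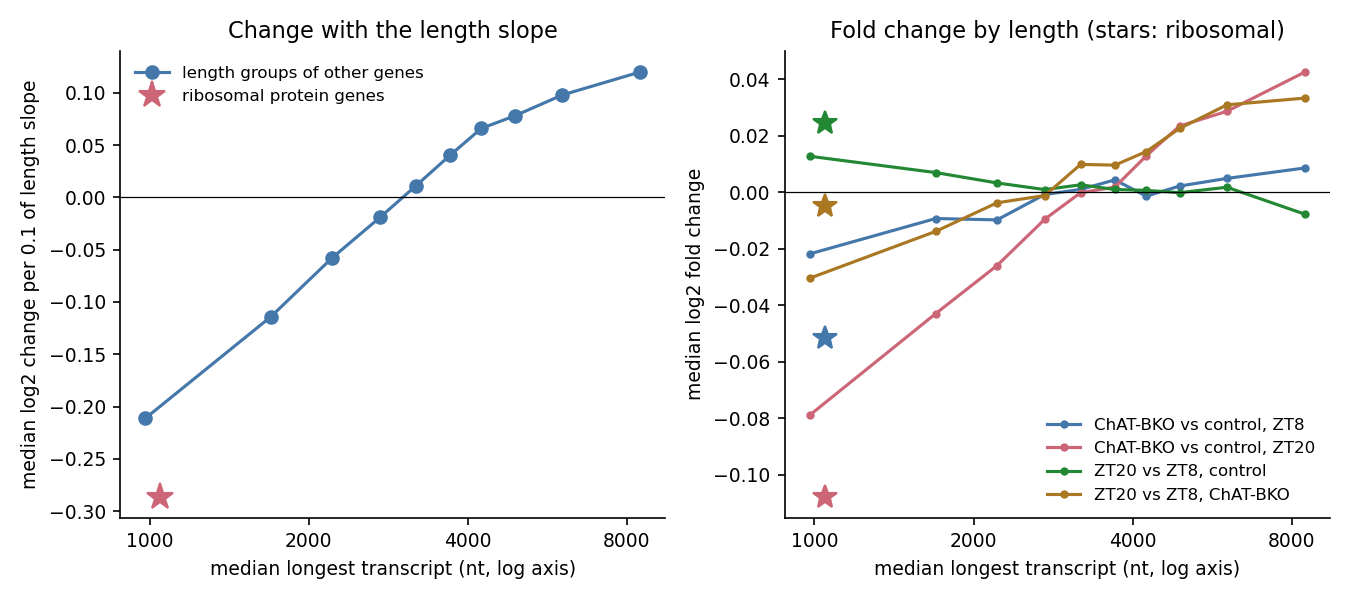
Left, median log2 change per 0.1 of length slope for 10 groups of other genes by longest transcript, with the median of the 89 ribosomal protein genes as a star, at -0.29. Right, median log2 fold change of the same groups in the 4 pairwise comparisons, with stars for ribosomal protein genes, at values from -0.11 to 0.02.

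With the length slope as a covariate in the fit, the members had medians of -0.02 (ZT8) and -0.03 (ZT20) on the log2 scale for ChAT-BKO against control, and of 0.02 between times in either genotype. In this fit, too, 0 members were called in any of the 5 comparisons. The lowest adjusted p (edgeR) was 0.066 for time in controls and 0.099 for time in ChAT-BKO, beside 0.655 and 0.66 without the slope. The slope is itself measured on these libraries, and whether it stems from RNA handling or from the neurons was not tested.

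Marker sums moved less closely with the members. The summed level of the 7 cholinergic markers, none of them at 0 in any library, ran from 4228 to 4879 CPM over the 24 libraries, with condition medians from 4384 to 4664, and had r of 0.658 with the members' mean. The sum of 6 astrocyte markers, likewise never at 0, ran from 166 to 263 CPM, with condition medians from 192 to 210, and had r of -0.453. For oligodendrocyte, microglia, endothelial, muscle and blood markers r lay between -0.154 and 0.157. Their part in the level of ribosomal protein mRNAs was not tested. The input had a length slope of 0.62 on log2 values with an offset of 0.1 CPM, against 0.109 to 0.355 in the immunoprecipitates computed the same way, and this difference and the cell types of whole cord cannot be told apart in the ratios to the input.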

How the data were processed

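Ribosome-bound RNA was measured by poly(A) RNA-seq in 24 immunoprecipitates and 1 pooled input. The authors aligned reads to mm10 with STAR (version 2.7.5) and deposited expected counts per gene from RSEM, which were rounded to whole numbers here. Members and lists were chosen with earlier results of these data known. Genes with 10 or more counts summed over the 24 immunoprecipitates were tested with edgeR 4.0.16 (R 4.3.3, TMM scaling, quasi-likelihood F test, two-sided, Benjamini-Hochberg over 21738 genes, threshold 0.05), each pairwise comparison on its own 12 libraries. SE is the fold change divided by the root of F. Log2 CPM used a prior count of 2, and ratios to the input used CPM of total counts with an offset of 0.1. Transcript lengths and coordinates came from GENCODE vM21 and RefSeq (GRCm38), the build of mm10, and 88 members had a length.

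Named genes were the 5 members of smallest p in each comparison, Rpl22 and Rpl22l1, the 5 highest and lowest per length and against the input, the P stalk, the paralogs, the members nearest to the count limit, those that deviated most from the members' median, and Arntl. A few others are named after their values were seen, for scale. Nothing in the labels beyond separate samples was used to define replicates, and libraries within conditions differed beyond counting noise (chi-square per degree of freedom from 1.86 to 27.8 over 60 pairs). On simulated counts with 200 genes changed by 1.5 on the log2 scale, the fits recovered 95% at ZT8 and 97% at ZT20. For the difference of the ChAT-BKO effects they recovered 87.5%. Of the calls made there, 8.21% at ZT8 and 5.83% at ZT20 were false. Recovery of changes as small as the members' medians was not tested. Alternatives were DESeq2 1.42.0, other scalings and filters, a replicate block, the length slope as covariate, all libraries in 1 fit, pseudogene rows summed, and each library left out.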

Additional observations from a re-analysis of the deposited data

Results flagged for a closer look

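In 10 of 140 groups of 6 libraries, the lowest or highest value stood apart by more of the group's range than Dixon's 95% critical value, where chance gives about 1 in 20. In controls at ZT20, replicate 2 was highest for Rps25 (153.8 CPM, the others 110.1 to 123.1), Rpl22l1 (108.1, others 77.4 to 85.1), Rplp1 (274.4, others 179.1 to 213.3), Rpl36 (214.3, others 154.2 to 171.8) and Rps27 (57.3, others 39.6 to 44.6). This library has one of the lowest length slopes, 0.115. In controls at ZT8, replicate 5 was lowest for Rpl4 (515.8 CPM, others 567 to 596) and for Rps27rt (0.58, others 1.80 to 2.20), and replicate 4 was highest for Rpl7l1 (31.6, others 28.1 to 28.8). In ChAT-BKO at ZT8, replicate 5 was lowest for Rpl7l1 (23.5, others 28.5 to 30.3) and Rpl3 (384.1, others 416 to 433). Both replicates 5 have high slopes, 0.341 and 0.268. Members move together, so flags in 1 library are not independent.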

How the results depend on the processing

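Under every alternative run (DESeq2, DESeq2 size factors in edgeR, no filter, filterByExpr, pseudogene rows summed, the length slope as covariate, all 24 libraries in 1 fit for the pairwise comparisons, and each library left out), 0 members were called in each of the 5 comparisons. The median length slope of 0.184 was -0.092 over genes of 10 CPM or more and -0.102 on the mean transcript length, while its relation to the members stayed (r with the members' mean -0.978 and -0.971). On the principal transcript length, an alternative chosen after seeing the data, it was 0.141. The members' median log2 ratio to the input was 0.43 with TMM over 25 libraries, against 0.01, and that of all genes 0.14 against -0.31. Leaving out 1 library gave members' medians from -0.11 to -0.01 and from -0.19 to -0.04 for ChAT-BKO at ZT8 and ZT20, from -0.03 to 0.08 and from -0.10 to 0.06 for time in controls and ChAT-BKO, and from -0.13 to 0.03 for the difference, with 0 calls throughout, and with 0 to 4 members at an unadjusted p under 0.05 except for the 38 without ChAT-BKO replicate 4 at ZT20. The direction of the 3 last medians thus depends on single libraries.

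Replicate numbers recur across conditions, but same-numbered libraries did not deviate together throughout (correlations from -0.197 to 0.356, over 0.1 in 3, 2, 2 and 0 of 6 pairs). For time in controls, though, all 6 lay from 0.009 to 0.356, beside a median of -0.037 for pairs of unlike number. With the replicate number as a block, 0 members were called, 1, 4, 2, 0 and 0 of 89 had an unadjusted p under 0.05, beside 4.05%, 5.27%, 8.77%, 7.30% and 3.52% of all genes in the same fits, and the medians were -0.05, -0.12, 0.04, -0.01 and -0.04. Depth of 4.04 M counts or more left the main genes well counted, but Rpl39l, Rps23rg1, Rps3a3 and Rps12l1 are not measurable at this depth.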
